A study of Mus musculus with 42 samples.

Results

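Collagens, laminins and integrins were followed at the transcript level while mouse embryonic stem cells differentiated into embryoid bodies. The members were chosen by symbol alone, as the protein coding genes named as a collagen chain (such as Col4a1), as a laminin chain (Lama, Lamb or Lamc with a digit) or as an integrin subunit (Itga or Itgb, without the integrin binding protein genes). The rule took 64 of the 14296 genes in the files, namely 32 collagens, 11 laminins and 21 integrins, and used no measured value. A further 19 of the 83 genes with such symbols in the annotation were not in the files analysed here, among them Itga2, Itgb2, Itgb6, Col4a3, Col4a4, Col6a3 and Col14a1.

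Collagens are triple-helical proteins, some of which assemble into fibrils (types I, II, III, V and XI) and some into the sheet-like network of the basement membrane (type IV). Laminins are trimers of an alpha, a beta and a gamma chain, form the other network of the basement membrane, and are among the first matrix proteins made by the early mouse embryo. Integrins are receptors of an alpha and a beta subunit that bind these and other matrix proteins outside the cell and connect them to actin inside it.

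The cells were the low-passage embryonic stem cell line W9.5 of strain 129X1/SvJ, so that every library came from a single line of a single strain. They differentiated after withdrawal of leukaemia inhibitory factor (LIF), and whole cultures were harvested at 21 time points, every 6 h from 0 h to 120 h. The 42 libraries comprise replicates A and B of every time point, described by the study as biological duplicates. Stranded poly-A RNA was sequenced, and levels are given as log2 CPM (log2 of counts per 1000000 reads with the offset of voom).

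Libraries held between 10120972 and 51652434 counted reads, the median being 29692082. A level of 3 reads, taken here as the floor, lay between -3.91 and -1.44 log2 CPM depending on the library. Of the 8 markers of undifferentiated pluripotent cells, all were detected at 0 h, where their summed level was 5502 to 6021 CPM, and it was 2360 to 2392 CPM at 120 h. Of the 8 measured markers of fibroblasts or feeder cells, 5 had at most 3 reads in both libraries at 0 h, including Dcn with 0 and 0 reads, while Thy1 and Pdgfrb were between 4.27 and 4.48 log2 CPM. In whole cultures, fewer cells of a type and less RNA per cell cannot be told apart.

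Levels were compared with limma between 5 pairs of time points (6 h against 0 h, 48 h against 6 h, 108 h against 48 h, 120 h against 108 h and 120 h against 0 h) and over the whole course. A gene was called at a Benjamini-Hochberg adjusted p below 0.0001. Neighbouring comparisons share libraries and are therefore not independent of each other. Over time, 61 of 64 members changed by the F test, against 74.6% of all genes. The 3 that were not called were Lamc1, the common laminin gamma chain (adjusted p = 8.27e-04), Itgae, a lymphocyte integrin subunit (adjusted p = 5.48e-04), and Lama3, an epithelial laminin chain (adjusted p = 0.00326).

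The members moved over a wider range than the rest of the transcriptome. The median range of a member's mean level over the 21 time points was 3.87 in log2 units, against 1.50 for all genes. Lamc1 had the narrowest range, 0.89, and Itgb8 the widest, 9.89, although its lowest level was under the floor. The lowest level fell between 6 h and 48 h in 42 members (65.6%, against 40.2% of all genes), and the highest between 102 h and 120 h in 34 members (53.1%, against 21.9%). Both held for 28 members, 43.8%, against 14% of all genes. These shares are descriptions with no test. The study took genes above 1 CPM in at least 2 samples as sufficient for its comparisons. Col3a1 and Col12a1 were above 0 log2 CPM only in libraries from 102 h on. Under such a filter, the late highest level of such members was given in advance, so part of these shares and ranges may follow from it. The filter acted on all genes alike, but how many genes passed it only through late libraries was not counted, for the members or for all genes.

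**Figure D1:**
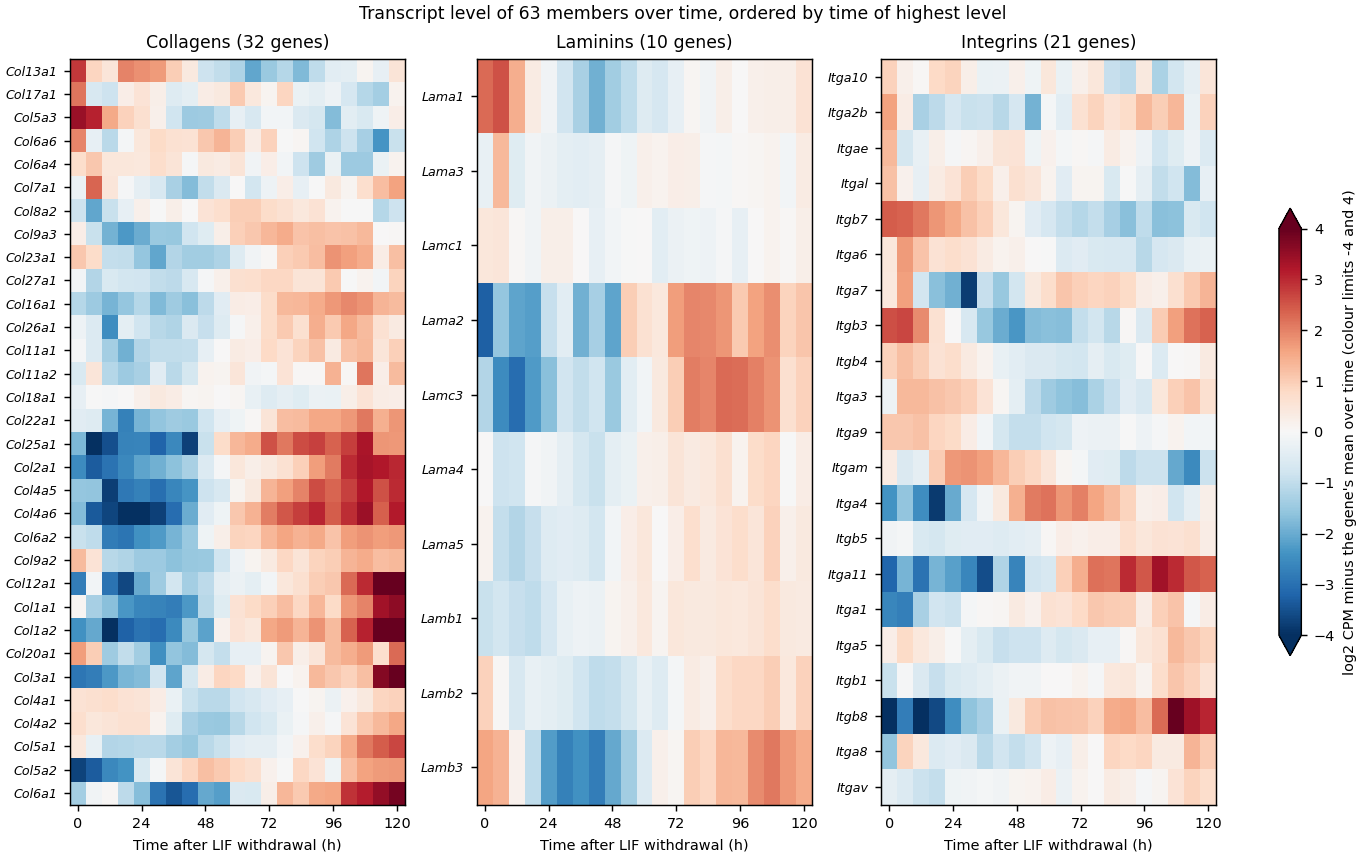
Mean level of 63 members at 21 time points after LIF withdrawal (h, x axis), as log2 CPM minus the gene's mean over time (colour), in panels for 32 collagens, 10 laminins and 21 integrins ordered from top to bottom by the time of the highest level. Blue between 6 h and 48 h followed by red from 102 h is the most frequent pattern. The top rows of each panel, such as Col5a3, Lama1 and Itgb7, have their highest level at 0 h or 6 h.

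In the first 6 h, 8 members rose, against 11.8% of all genes called higher, and 10 fell, against 14.5% of all genes called lower. Among the members that rose were 5 integrin subunits, the laminin chain Lama3 and Col7a1. Of the 10 that fell, 7 were collagens, and 2 to 4 members, 1 to 3 of them collagens, were lower when any 1 of the 4 libraries was left out. The 2 shares of the 64 members were near those of all genes, and the median log2 fold change was -0.09 for the members and -0.05 for all genes.

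Between 6 h and 48 h, 8 members rose and 20 fell, against 13.1% and 10.4% of all genes. The median log2 fold change was -0.34 for the members and 0.02 for all genes. The 8 became 5 without replicate B of 48 h and 6 without any other of the 4 libraries. The fall took in 8 of 32 collagens, 4 of 11 laminins and 8 of 21 integrins. Among markers of extraembryonic endoderm, a cell layer known for making basement membrane, Sox7 fell by 5.36 ± 0.33 and Gata6 by 3.89 ± 0.69 in the same interval (adjusted p = 1.60e-13 and 2.70e-05), whereas Dab2 rose by 2.77 ± 0.18 (adjusted p = 4.78e-13) and the other 4 of the 7 measured markers were not called. The summed level of the 7 was 15.4 to 15.6 CPM at 6 h and 14.2 CPM in both libraries at 48 h. The highest of them was Sox7 at 6 h (3.11 and 3.02 log2 CPM) and Dab2 at 48 h (3.47 and 3.43). The part of the 7 in the fall of the members was not tested.

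Between 48 h and 108 h, 36 members rose and 4 fell, against 15.7% and 12.9% of all genes. The median log2 fold change was 1.54 for the members and 0.01 for all genes. The rise took in 20 of 32 collagens, 7 of 11 laminins and 9 of 21 integrins. The 4 that fell were Col6a4, Col6a6, Itgam and Itgb7. With only genes of a mean of at least 0 log2 CPM, which drops members from the test, 31 of the 40 calls remained. Leaving out either library of either time point gave between 27 and 30 members higher and 2 or 3 lower, and 23 of the 36 were called whichever of these 4 libraries was left out. The count of laminins was 4 without replicate B of 48 h and 5 or 6 without another of the 4.

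Markers of other cell types moved in the same interval. Of the 7 measured markers of extraembryonic endoderm, 6 rose and 0 fell from 48 h to 108 h, and their summed level went from 14.2 CPM to 42.6 to 43.7 CPM. Most of both sums was Dab2, at 3.47 and 3.43 log2 CPM at 48 h and 4.90 and 4.81 at 108 h. At 48 h, Foxa2 had 4 and 1 reads and Gata6 had 2 and 1. Of the 4 measured markers of mesoderm and primitive streak, 3 rose and 0 fell, and their sum went from 16.8 to 17.3 CPM to 88.3 to 128 CPM. Of the 4 measured markers of primed epiblast, 1 rose and 2 fell, and their sum was 1916 to 2009 CPM at 48 h and 657 to 754 CPM at 108 h. Fgf5 rose by 1.52 ± 0.18, Otx2 fell by 1.65 ± 0.17 and Dnmt3b by 2.75 ± 0.11, and Pou3f1 was not called. Dnmt3b had the highest level of the 4 at 48 h, a mean of 10.56 log2 CPM. The part of these cell types in the rise of the members was not tested.

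From 108 h to 120 h, 1 member rose, Col1a1, against 2.39% of all genes, and none of the 64 was called lower by limma, against 1.73%. At an unadjusted p below 0.05, 16 members were higher and 14 lower, and with voom precision weights 5 were called higher and 0 lower. The shares of all genes given here do not apply to these other settings, for which none was counted. From 0 h to 120 h, 26 members rose and 7 fell, against 12.9% and 10.1% of all genes, with a median log2 fold change of 0.73 for the members and -0.02 for all genes. Without the members that had at most 3 reads in both libraries of 0 h, 20 were higher.

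**Figure D2:**
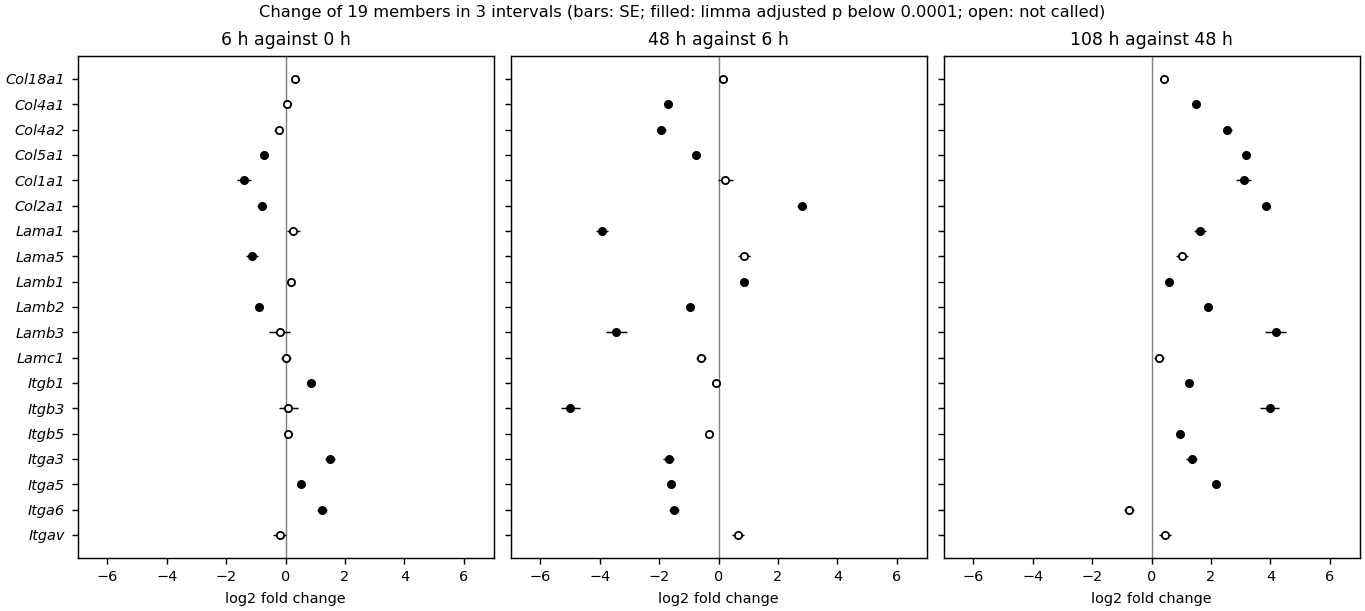
Log2 fold change (x axis) of 19 members in 3 intervals, 6 h against 0 h, 48 h against 6 h and 108 h against 48 h, with bars of 1 SE from limma and filled points for an adjusted p below 0.0001. Lamb3 runs from -0.20 to -3.44 to 4.17, Itgb3 is near 0 before falling by 4.99 and rising by 3.97, and Col18a1 and Lamc1 have open points in all 3 panels.

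Laminin chains. The common chains of basement membrane laminin are Lama1 and Lama5 (alpha), Lamb1 and Lamb2 (beta) and Lamc1 (gamma), while Lama3 and Lamb3 belong to the epithelial laminin of anchoring structures. Lama1 and Lama5 took different courses up to 48 h, and both were higher at 108 h than at 48 h. Lama1 was at 5.98 and 5.85 log2 CPM at 0 h (replicates A and B), 6.23 and 6.12 at 6 h, 2.21 and 2.30 at 48 h and 4.19 and 4.20 at 120 h. Lama5 was at 8.42 and 8.20 at 0 h, 7.22 and 7.15 at 6 h, 8.16 and 7.93 at 48 h, 9.07 and 9.08 at 108 h and 8.56 and 8.54 at 120 h. The duplicates of Lama1 at 48 h and 120 h lay below both of its 0 h libraries. Those of Lama5 at 120 h lay above both of its 0 h libraries, a difference that was not called.

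Lama1 fell by 3.92 ± 0.21 on the log2 scale (SE, n = 2 per time point) from 6 h to 48 h (limma, adjusted p = 6.25e-15), rose by 1.63 ± 0.21 to 108 h (adjusted p = 1.83e-07), and was 1.71 ± 0.21 below its starting level at 120 h in log2 terms (log2 fold change -1.71, adjusted p = 9.21e-08). Lama5 fell by 1.13 ± 0.20 in the first 6 h (adjusted p = 3.69e-05), a call that was lost whichever of the 4 libraries was left out (adjusted p = 2.59e-04 to 0.00165). Its later differences, 0.86 ± 0.20 from 6 h to 48 h and 1.03 ± 0.20 from 48 h to 108 h, missed the threshold (adjusted p = 8.48e-04 and 1.07e-04).

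Set on a scale per length, as CPM per kb of annotated exon, the 5 laminin alpha chains changed in proportion. Lama1 made up 17.7% and 18.4% of their summed CPM per kb at 0 h (A and B), 36.3% and 35.6% at 6 h, 1.83% and 2.27% at 48 h and 5.33% and 5.43% at 120 h. Lama5 made up 81.4% and 80.3% at 0 h, 61.0% and 62.0% at 6 h, 96.9% and 96.1% at 48 h and 93.3% and 92.9% at 120 h. The ratio of Lama5 to Lama1 per kb was 4.60 and 4.36 at 0 h, 52.9 and 42.4 at 48 h and 17.5 and 17.1 at 120 h. Lama5 was thus the most abundant alpha transcript per length at each of these time points, and Lama1 came nearest to it at 6 h.

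Among the beta chains, Lamb1 went up while Lamb2 dipped. Lamb1 was at 6.45 and 6.31 log2 CPM at 0 h, 6.59 and 6.50 at 6 h, 7.41 and 7.36 at 48 h and 7.99 and 7.98 at 108 h. It rose by 0.84 ± 0.09 from 6 h to 48 h and by 0.60 ± 0.09 from 48 h to 108 h (adjusted p = 6.39e-09 and 1.67e-06), the latter call being lost without replicate B of 48 h (adjusted p = 1.11e-04). Lamb2 was at 6.09 and 5.99 at 0 h, 5.19 and 5.14 at 6 h, 4.09 and 4.30 at 48 h and 6.10 and 6.11 at 108 h. It fell by 0.88 ± 0.11 and then by 0.97 ± 0.11, and rose by 1.91 ± 0.11 from 48 h (adjusted p = 2.45e-07, 3.78e-08 and 7.03e-14). All 4 libraries of Lamb2 at 0 h and 108 h lay between 5.99 and 6.11.

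Per kb, Lamb2 was 53.0% and 53.7% of the 3 beta chains at 0 h, 13.9% and 16.3% at 48 h and 33.4% and 35.0% at 120 h. Lamb1 was 41.8% and 41.0%, then 85.5% and 83.4%, then 63.7% and 61.8%. On this scale the order of the pair was turned between 0 h and 48 h and had not turned back at 120 h. The turn rests on the annotated exon lengths, 9917 bases for Lamb1 and 6082 for Lamb2. In log2 CPM, Lamb1 was above Lamb2 at 0 h as well (6.45 and 6.31 against 6.09 and 5.99), and at 48 h and 120 h.

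The gamma chain Lamc1 was at 8.80 and 8.56 log2 CPM at 0 h, 8.24 and 8.01 at 48 h and 8.51 and 8.44 at 120 h, and was called in none of the 5 comparisons.

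The epithelial chains Lamb3 and Lama3 took different courses. Lamb3 was at 2.86 and 2.78 at 0 h, 2.60 and 2.64 at 6 h, -0.35 and -1.29 at 48 h and 3.24 and 3.46 at 108 h. It fell by 3.44 ± 0.35 and rose by 4.17 ± 0.35 in the later intervals (adjusted p = 3.71e-09 and 9.85e-11), with a difference of -0.20 ± 0.35 in the first 6 h (adjusted p = 0.652). Lama3 was at 0.32 and 0.64 at 0 h, 2.11 and 2.06 at 6 h and 0.06 and 0.55 at 12 h. It rose by 1.60 ± 0.30 and fell back by 1.78 ± 0.30 in the next step (adjusted p = 5.65e-05 and 7.33e-05), and stayed between 0.63 and 1.14 at 48 h, 108 h and 120 h. The call at 6 h was lost whichever of its 4 libraries was left out (adjusted p = 3.52e-04 to 0.00227).

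Across the 21 mean levels, Pearson's r was -0.39 between Lamb1 and Lamc1, chains of the same common laminins. These points share libraries and a common time course, so the value is a description. Lower levels were found for 3 further laminins. Lama4 ranged from 0.66 to 2.41 in mean level, Lama2 had 0 and 1 reads at 0 h and 47 and 32 at 108 h, and Lamc3 had 3 and 3 reads at 48 h and 42 and 33 at 108 h.

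**Figure D3:**
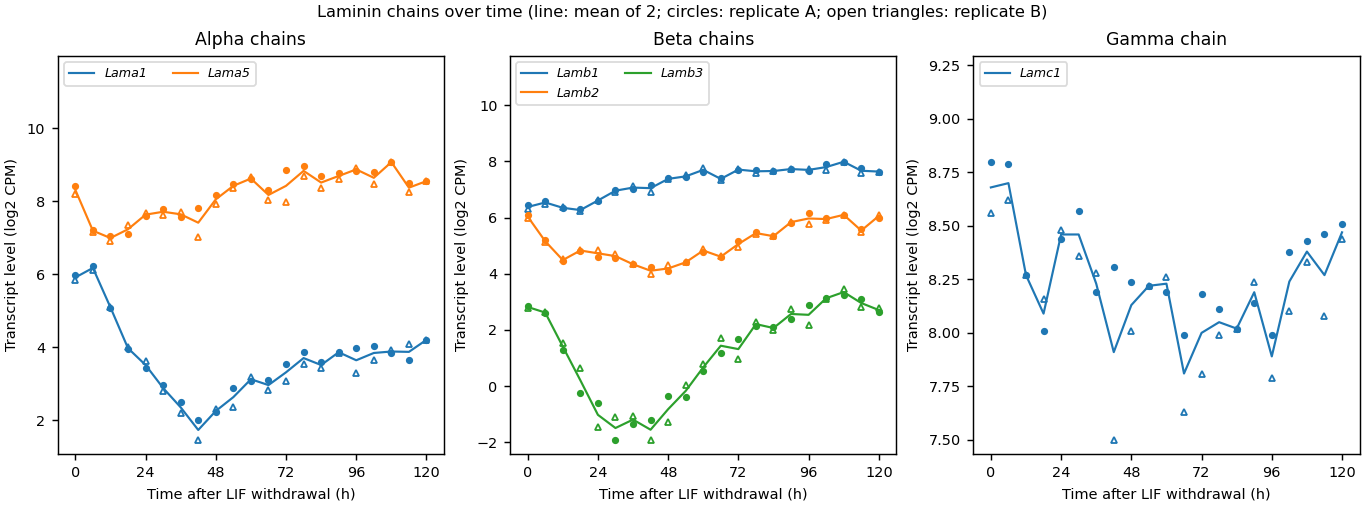
Levels of 6 laminin chains (log2 CPM, y axis) against time after LIF withdrawal (h, x axis), with lines for the mean of 2 libraries, circles for replicate A and open triangles for replicate B, in panels for alpha, beta and gamma chains. Lama1 and Lamb3 form troughs at 42 h, Lama5 and Lamb2 have theirs at 12 h and 42 h, and Lamc1 stays between 7.81 and 8.70 in mean level.

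Integrin subunits. Itgb1, the beta subunit shared by most laminin, collagen and fibronectin receptors, had more CPM per kb than any other integrin at 0 h, 6 h, 48 h, 108 h and 120 h. It was at 8.38 and 8.35 log2 CPM at 0 h, 9.27 and 9.16 at 6 h, 9.13 and 9.12 at 48 h, 10.45 and 10.32 at 108 h and 9.89 and 9.82 at 120 h. It rose by 0.85 ± 0.10 in the first 6 h and by 1.26 ± 0.10 from 48 h to 108 h (adjusted p = 7.21e-08 and 3.49e-11). Its difference from 6 h to 48 h was -0.09 ± 0.10 (adjusted p = 0.463). The level was not held between these times: Itgb1 was at 8.70 and 8.69 at 12 h and 8.44 and 8.28 at 18 h, the time of its lowest mean level. Per kb, it made up 65.9% and 65.6% of the 6 beta subunits at 0 h and 91.1% and 90.7% at 108 h.

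Its alpha partners are known by what they bind, Itga6 and Itga3 laminin, Itga5 fibronectin, and Itga1 and Itga11 collagen. Itga6 was at 8.10 and 8.0 at 0 h, 9.41 and 9.17 at 6 h, 7.87 and 7.70 at 48 h and 7.04 and 7.01 at 108 h. Itga3 was at 6.46 and 6.43 at 0 h, 7.95 and 7.91 at 6 h, 6.28 and 6.22 at 48 h and 7.66 and 7.53 at 108 h. Itga5 was at 6.99 and 6.99 at 0 h, 7.51 and 7.49 at 6 h, 5.87 and 5.90 at 48 h and 8.05 and 8.03 at 108 h. All 3 were higher at 6 h and lower at 48 h in both replicates, and they parted after 48 h.

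In the first 6 h Itga6 rose by 1.24 ± 0.17, Itga3 by 1.49 ± 0.18 and Itga5 by 0.51 ± 0.10 (adjusted p = 7.03e-07, 1.29e-07 and 7.53e-05). The call of Itga5 was lost whichever of the 4 libraries was left out (adjusted p = 9.77e-04 to 0.00159). From 6 h to 48 h they fell by 1.50 ± 0.17, 1.68 ± 0.18 and 1.61 ± 0.10 (adjusted p = 2.55e-08, 1.26e-08 and 9.91e-14). From 48 h to 108 h Itga3 rose by 1.35 ± 0.18 and Itga5 by 2.15 ± 0.10 (adjusted p = 5.04e-07 and 2.93e-16), and Itga6 differed by -0.76 ± 0.17, which missed the threshold (adjusted p = 4.25e-04). Itga5 also rose by 0.71 ± 0.10 in the single step from 102 h to 108 h (adjusted p = 1.04e-05).

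On the scale per length, Itga6 was 36.8% and 35.3% of the summed CPM per kb of the 15 alpha subunits at 0 h, 45.2% and 42.1% at 6 h, 43.4% and 41.1% at 48 h and 12.6% and 12.9% at 108 h. Itga5 was 31.2% and 32.3% at 0 h, 19.9% and 21.6% at 48 h and 46.4% and 47.9% at 108 h. Itga3 was 18.6% and 18.9% at 0 h and 30.7% and 29.3% at 108 h. The laminin receptor subunit Itga6 was the largest share at 6 h and 48 h, and the fibronectin receptor subunit Itga5 at 108 h.

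Of the 3 measured collagen receptor subunits, Itga1 and Itga11 were low early. Itga10 went the other way, with its highest mean level, 1.08, at 0 h and its lowest, -1.12, at 102 h. Itga1 was at -2.39 and -2.78 at 0 h, -2.61 and -2.78 at 6 h and 0.46 and 0.29 at 48 h, and rose by 3.07 ± 0.30 from 6 h to 48 h (adjusted p = 1.37e-09). Itga11 had 0 and 0 reads at 0 h, 0 and 1 at 48 h, 65 and 32 at 108 h and 23 and 26 at 120 h. Against a floor of 3 reads over both libraries of 0 h, Itga11 was at least 15-fold higher at 120 h. From 48 h to 108 h the ratio of CPM was 88.8, with an exact 95% counting interval from 15.6 to 3542, and its call was lost without replicate A of 48 h (log2 fold change 4.81, adjusted p = 1.07e-04). Counting intervals and floors here cover counting error only. Itga8, a subunit for matrix proteins with an RGD site, rose by 2.48 ± 0.25 in the first 6 h, from 0.32 and 0.14 to 2.82 and 2.59 (adjusted p = 5.22e-09), and fell by 1.86 ± 0.25 to 48 h (adjusted p = 5.87e-07).

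The alpha v subunit Itgav and its beta partners Itgb3, Itgb5 and Itgb8 bind vitronectin, fibronectin or latent TGF-beta. Itgav was at 5.34 and 5.25 at 0 h and 6.41 and 6.32 at 120 h, a difference of 1.07 ± 0.21 just short of the threshold (adjusted p = 1.01e-04). Itgb3 was at 4.18 and 3.93 at 0 h, 4.23 and 4.06 at 6 h, -0.63 and -1.06 at 48 h, 3.15 and 3.10 at 108 h and 3.87 and 3.77 at 120 h. It fell by 4.99 ± 0.32 and rose by 3.97 ± 0.32 (adjusted p = 2.46e-13 and 3.08e-11), and its 120 h and 0 h levels differed by -0.24 ± 0.32 (adjusted p = 0.551). The trough of Itgb3 thus left its 2 end points within the error of each other.

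Itgb5 was at 5.85 and 5.79 at 0 h, 5.38 and 5.35 at 12 h and 6.55 and 6.50 at 108 h. It fell by 0.53 ± 0.09 from 6 h to 12 h and rose by 0.97 ± 0.09 from 48 h to 108 h (adjusted p = 4.50e-05 and 2.95e-10). Itgb8 had 0 and 2 reads at 0 h, 4 and 4 at 6 h and 325 and 278 at 120 h, a ratio of CPM of 278 between the end points, with a counting interval from 76.5 to 2298. Its fitted log2 fold change of 7.96, which depends on the offset added to low counts, was 6.81 without replicate A of 0 h and 9.10 without replicate B of 0 h, and was called in both cases. Pearson's r over the 21 mean levels was -0.03 between Itgav and Itgb3 and 0.68 between Itgav and Itgb5, again as a description.

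Of the integrin subunits known from white blood cells, Itgb7 and Itgae were called lower at 120 h than at 0 h, and Itgal and Itgam were not called in that comparison. The call of Itgae was lost whichever of the 4 libraries was left out (adjusted p = 4.38e-04 to 8.79e-04). Itgb7 was at 5.70 and 5.76 at 0 h, 3.35 and 3.47 at 48 h and 1.64 and 1.68 at 108 h. It fell by 2.26 ± 0.19 from 6 h to 48 h, by 1.75 ± 0.19 from 48 h to 108 h, and by 3.23 ± 0.19 from 0 h to 120 h (adjusted p = 1.18e-10, 1.48e-08 and 9.96e-14). Per kb it was 15.1% and 16% of the beta subunits at 0 h, more than Itgb5, Itgb4 or Itgb3, and 0.297% and 0.332% at 108 h. The 2 measured markers of blood cells summed to 3.15 to 3.22 CPM at 0 h and 2.15 to 2.21 CPM at 120 h, both above 3 reads, and their part in the level of Itgb7 was not tested.

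Itgae fell by 2.01 ± 0.33 in the first 6 h (adjusted p = 8.89e-06), a call lost without replicate B of 6 h or either library of 0 h (adjusted p = 2.34e-04 to 5.15e-04). Itgam fell by 3.02 ± 0.36 from 48 h to 108 h, from 1.61 and 1.48 to -2.01 and -0.95 (adjusted p = 4.75e-08). It shares 68.67% of its annotated exon bases with another gene on the same strand, so that its count is uncertain. Itga10, with 33.53% shared, is the only other member above 10%. Itga9, another partner of Itgb1, fell by 2.03 ± 0.12 from 6 h to 48 h and rose by 1.09 ± 0.12 to 108 h (adjusted p = 1.21e-13 and 2.59e-08). Itga4, in the same class of alpha subunits, was at -1.70 and -2.78 at 6 h and 1.10 and 0.45 at 48 h, and its call was lost without replicate B of 6 h or either library of 48 h (adjusted p = 2.34e-04 to 0.00336).

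**Figure D4:**
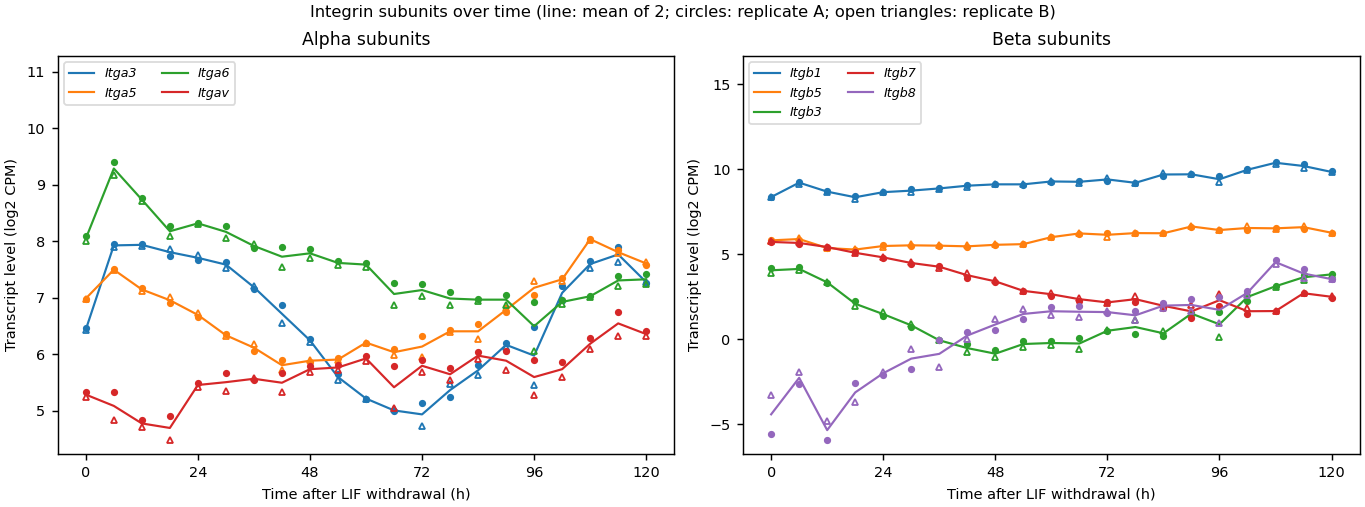
Levels of 9 integrin subunits (log2 CPM, y axis) against time after LIF withdrawal (h, x axis), with lines for the mean of 2 libraries, circles for replicate A and open triangles for replicate B, in panels for alpha and beta subunits. Itga5 and Itga3 dip and recover while Itga6 ends below its start, and among the beta subunits Itgb3 has a trough at 48 h, Itgb7 declines and Itgb8 climbs from under 3 reads.

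Basement membrane collagens. Type IV collagen genes lie in pairs that point away from each other. On chromosome 8 the transcripts of Col4a1 (minus strand) and Col4a2 (plus strand) overlap at their starts by 22 bases in the GENCODE annotation, and on chromosome X the starts of Col4a6 (minus strand) and Col4a5 (plus strand) are separated by 1308 bases. The overlap on chromosome 8 and a stretch upstream of each start on chromosome X are shown, 5′ to 3′ on the strand given, because the genes of each pair moved together, while the middle of the gap on chromosome X is left out. They come from the RefSeq promoter table on GRCm38.p6, which held 45 of the 64 members. Capitals mark the GC box (GGGCGG or its reverse complement CCGCCC) and the CCAAT box (CCAAT or ATTGG).
Col4a1 and Col4a2 overlap, chr8:11312805-11312826, plus strand: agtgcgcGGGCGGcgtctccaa
Col4a6 upstream, chrX:141474077-141474326, minus strand: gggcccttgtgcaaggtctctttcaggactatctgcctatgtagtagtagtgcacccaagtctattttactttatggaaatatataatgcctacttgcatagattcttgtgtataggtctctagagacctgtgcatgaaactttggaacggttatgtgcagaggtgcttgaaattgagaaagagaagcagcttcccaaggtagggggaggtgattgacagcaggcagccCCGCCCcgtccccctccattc
Col4a5 upstream, chrX:141475169-141475384, plus strand: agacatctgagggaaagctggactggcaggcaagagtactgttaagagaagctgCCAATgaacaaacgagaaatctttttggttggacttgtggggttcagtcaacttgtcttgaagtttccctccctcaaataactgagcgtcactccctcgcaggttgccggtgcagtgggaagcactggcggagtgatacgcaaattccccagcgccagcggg
The shared start on chromosome 8 held 1 GC box, the stretch before Col4a6 held 1 GC box near its 3′ end, and that before Col4a5 held 1 CCAAT box. Of all 32851 windows of 300 bases in that table, 35.7% held a GC box and 37.4% a CCAAT box on either strand. Among the 45 members with a window, 30 held a GC box and 15 a CCAAT box. A member was counted if any of its windows held the motif, so these counts cannot be set against the shares of single windows. A match of letters is not evidence of a bound site.

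Col4a1 was at 6.08 and 5.99 log2 CPM at 0 h, 6.16 and 6.03 at 6 h, 5.90 and 6.06 at 24 h, 4.41 and 4.36 at 48 h, 5.94 and 5.78 at 108 h and 6.39 and 6.38 at 120 h. Col4a2 was at 5.33 and 5.23 at 0 h, 5.10 and 4.99 at 6 h, 5.11 and 5.31 at 24 h, 3.24 and 2.99 at 48 h, 5.74 and 5.58 at 108 h and 6.11 and 6.20 at 120 h. Both were at their lowest mean level at 54 h, of 4.37 and 3.10. They fell by 1.71 ± 0.13 and 1.93 ± 0.15 from 6 h to 48 h (adjusted p = 1.56e-11 and 1.07e-11). They rose by 1.48 ± 0.13 and 2.54 ± 0.15 from 48 h to 108 h (adjusted p = 2.95e-10 and 4.19e-14).

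Pearson's r between Col4a1 and Col4a2 over the 21 mean levels was 0.97, and 0.97 and 0.96 within replicates A and B. The ratio of Col4a1 to Col4a2 per kb was 1.50 and 1.51 at 0 h, 1.99 and 2.29 at 48 h and 1.08 and 1.0 at 120 h. The chains of the usual trimer, which holds more of the first than of the second, were thus at nearly equal transcript levels per length at 120 h. Only Col4a2 was above its 0 h level by the test at 120 h, by 0.88 ± 0.15 (adjusted p = 1.32e-05), a call that was lost whichever of the 4 libraries was left out (adjusted p = 1.74e-04 to 6.19e-04). Col4a1 differed by 0.35 ± 0.13 (adjusted p = 0.0297), and whether these changes differ from each other was not tested.

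Col4a5 and Col4a6, chains of a separate type IV network, were near the floor early. Col4a5 was at -1.04 and -1.07 at 0 h, -1.26 and -0.85 at 6 h, -3.59 and -2.91 at 12 h, -0.06 and -0.61 at 48 h and 3.81 and 3.62 at 108 h. It fell by 2.20 ± 0.37 from 6 h to 12 h and rose by 4.05 ± 0.37 from 48 h to 108 h (adjusted p = 7.79e-05 and 5.52e-10). Col4a6 was at -1.75 and -1.73 at 48 h, from 8 and 8 reads, and at 2.04 and 2.22 at 108 h. Pearson's r between the pair was 0.97 over the mean levels. At 96 h their duplicates parted together, with Col4a5 at 3.60 and 2.10 and Col4a6 at 2.10 and 0.16.

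Col18a1, a collagen of basement membranes whose end fragment is endostatin, was the most abundant collagen per length at the 8 time points compared on that scale and had a range of 1.06 over time. It was at 8.77 and 8.70 at 0 h, 9.23 and 9.15 at 48 h, 9.61 and 9.60 at 108 h and 9.35 and 9.33 at 120 h, and was called in none of the 5 comparisons. It made up 59.5% and 59.1% of the summed CPM per kb of the 32 collagens at 0 h, 86.5% and 86.2% at 48 h and 50.3% and 49.3% at 120 h. The sum over all 32 was 105 and 100.0 CPM per kb at 0 h, 99.1 and 93.9 at 48 h and 185 and 186 at 120 h.

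Fibrillar collagens. Col1a1 and Col1a2 encode the chains of type I collagen, the main fibril of bone, skin and tendon. Col1a1 was at 2.26 and 2.53 at 0 h, 0.98 and 1.01 at 6 h, -0.10 and -0.47 at 24 h, 1.21 and 1.22 at 48 h, 4.30 and 4.33 at 108 h and 5.94 and 5.86 at 120 h. Col1a2 had 2 and 2 reads at 0 h, 8 and 1 at 48 h and 794 and 540 at 120 h. Col1a1 was detected at every time shown, while Col1a2 was at the floor at 0 h.

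Col1a1 fell by 1.40 ± 0.25 in the first 6 h (adjusted p = 2.27e-05, but 1.63e-04 to 0.00119 with any 1 of the 4 libraries left out) and rose by 3.10 ± 0.25 from 48 h to 108 h (adjusted p = 2.84e-11). It rose again by 1.59 ± 0.25 from 108 h to 120 h (adjusted p = 2.53e-05), the only call of that interval, and that call was lost whichever of its 4 libraries was left out (adjusted p = 6.75e-04 to 9.46e-04). For Col1a2 the ratio of CPM between 120 h and 0 h was 307, with a counting interval from 119.7 to 1129. The ratio of Col1a1 to Col1a2 per kb was 4.05 and 4.93 at 120 h. It rests on the annotated exon lengths, 6563 bases for Col1a1 and 12426 for Col1a2. In reads at 120 h, Col1a1 had 1697 and 1407 and Col1a2 had 794 and 540. Pearson's r between the pair over the mean levels was 0.94.

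Col3a1, the chain of type III collagen that is found with type I, had 0 and 0 reads at 0 h and at 6 h, 6 and 4 at 48 h and 70 and 69 at 120 h. At 120 h it was at least 42.7-fold higher than the floor of 3 reads over both 0 h libraries. In the same libraries, of the 8 measured fibroblast or feeder markers, all had more than 3 reads in at least 1 library at 120 h, and their summed level was 45.9 to 46.4 CPM at 0 h, 14.6 to 15.8 CPM at 48 h and 95 to 100.1 CPM at 120 h. The sum at 120 h was mostly Acta2, at 6.25 and 6.15 log2 CPM, the next highest marker being Pdgfrb at 2.48 and 2.55. Acta2 went from 1 and 1 reads at 0 h to 2107 and 1722 at 120 h and Postn from 1 and 0 to 148 and 107, whereas Dcn had 11 and 6 reads at 120 h and Thy1 and Pdgfrb fell from 0 h to 120 h by 2.55 ± 0.31 and 1.93 ± 0.22. The part of such cells in the rise of Col1a1, Col1a2 and Col3a1 was not tested.

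Col2a1, the cartilage and notochord collagen, rose earlier. It was at 1.86 and 2.10 at 0 h, 1.06 and 1.28 at 6 h, 2.27 and 2.47 at 24 h, 3.95 and 3.98 at 48 h, 6.85 and 6.31 at 96 h and 7.89 and 7.72 at 108 h. It rose by 2.79 ± 0.14 from 6 h to 48 h and by 3.84 ± 0.14 from 48 h to 108 h (adjusted p = 3.33e-15 and 4.22e-18). At 120 h it was 5.52 ± 0.14 above 0 h (adjusted p = 1.33e-21), and made up 9.86% and 11.2% of the collagen sum per kb.

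The 3 chains of type V collagen, which starts fibrils of type I, took different courses. Col5a1 was at 4.99 and 4.84 at 0 h, 4.19 and 4.21 at 6 h, 3.46 and 3.39 at 48 h and 7.20 and 7.17 at 120 h. Col5a3 was at 5.52 and 5.39 at 0 h, 5.08 and 5.03 at 6 h, 0.70 and 0.45 at 48 h and 2.25 and 2.24 at 120 h. Col5a2 had 5 and 0 reads at 0 h, 2 and 1 at 6 h and 56 and 60 at 48 h. Col5a1 ended higher, Col5a3 ended lower, and Col5a2 came up from the floor by 48 h.

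From 0 h to 120 h Col5a1 rose by 2.26 ± 0.14 and Col5a3 fell by 3.21 ± 0.46 (adjusted p = 1.60e-13 and 1.37e-06). From 6 h to 48 h Col5a3 fell by 4.48 ± 0.46 (adjusted p = 4.08e-09), and the CPM ratio of Col5a2 was 30.4, with a counting interval from 10.1 to 149. Pearson's r between Col5a1 and Col5a2 was 0.37. Of the 10 fibrillar collagens measured, 0 were called higher and 3 lower in the first 6 h, and 6 higher and 0 lower from 48 h to 108 h, with median log2 fold changes of -0.45 and 1.80. Among all genes 14.5% were lower in the former interval and 15.7% higher in the latter. The 3 that were lower, Col1a1, Col2a1 and Col5a1, became 1 without replicate A of 0 h and 0 without any other of the 4 libraries. The 6 that were higher became 4 or 5, Col11a1, Col11a2 and Col1a2 each being lost at least once.

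**Figure D5:**
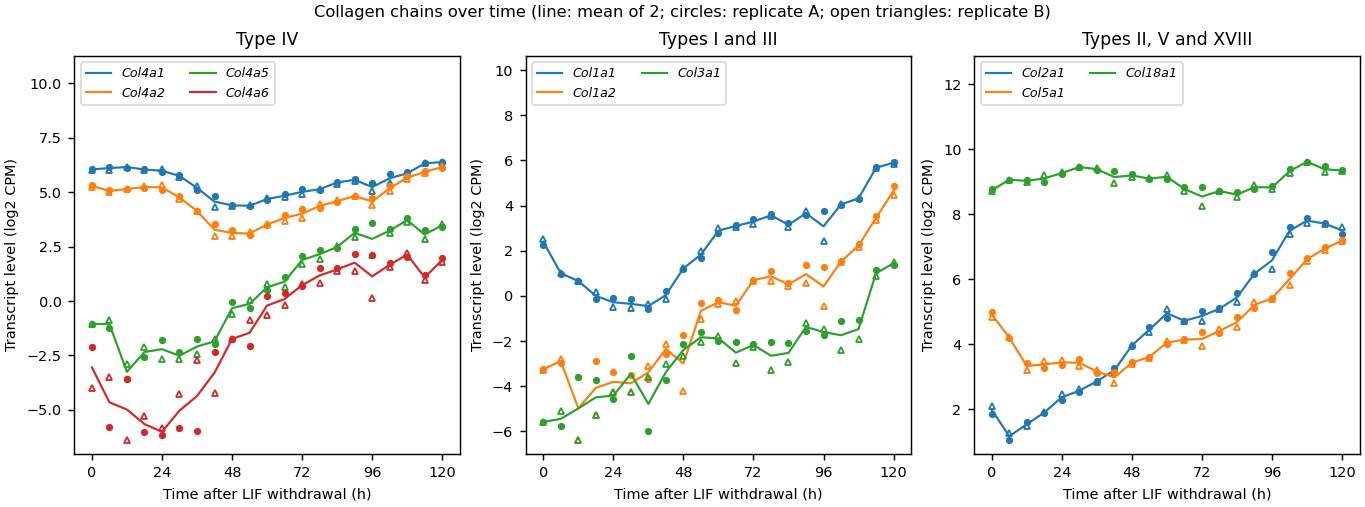
Levels of 10 collagen chains (log2 CPM, y axis) against time after LIF withdrawal (h, x axis), with lines for the mean of 2 libraries, circles for replicate A and open triangles for replicate B, in panels for type IV, types I and III, and types II, V and XVIII. Col4a1 and Col4a2 share a trough at 54 h, Col4a5 and Col4a6 climb together from near the floor, Col1a2 and Col3a1 are low before 48 h and highest at 120 h, and Col2a1 rises from 6 h while Col18a1 stays between 8.54 and 9.61 in mean level.

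Other collagens. Col7a1, the anchoring fibril collagen that binds epithelial laminin, was at 2.56 and 2.20 at 0 h, 4.99 and 4.91 at 6 h, 3.16 and 3.05 at 12 h, 1.51 and 1.73 at 48 h and 3.29 and 3.31 at 108 h. It rose by 2.57 ± 0.19 in the first 6 h, fell by 3.33 ± 0.19 to 48 h and rose by 1.69 ± 0.19 to 108 h (adjusted p = 1.92e-11, 3.69e-14 and 2.69e-08). Col17a1, a transmembrane collagen of hemidesmosomes, went the other way in the first 6 h, from 1.18 and 1.67 to -1.88 and -0.85, a fall of 2.79 ± 0.44 (adjusted p = 4.69e-06) whose call was lost without replicate A of 6 h or replicate B of 0 h (adjusted p = 6.70e-04 and 3.66e-04).

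Col13a1, another transmembrane collagen, fell by 1.96 ± 0.23 in the first 6 h and by 1.71 ± 0.23 from 6 h to 48 h (adjusted p = 4.21e-08 and 3.65e-07). Between these times it was at 2.91 and 3.06 at 24 h, above its 12 h libraries at 1.65 and 1.65. Col13a1 and Lamb2 were the 2 of the 10 members lower at 6 h whose calls held whichever of the 4 libraries was left out, and leaving out any of them gave between 2 and 4 members lower.

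The chains of type VI collagen, a beaded filament, did not share a course. Col6a1 was at -2.38 and -2.36 at 48 h and 2.81 and 2.80 at 108 h, a rise of 5.17 ± 0.52 (adjusted p = 2.47e-09). Col6a2 fell by 1.77 ± 0.21 from 6 h to 12 h and rose by 1.95 ± 0.21 from 48 h to 108 h (adjusted p = 4.69e-07 and 8.71e-09). Col6a6 fell by 2.26 ± 0.40 in the first 6 h and by 2.41 ± 0.40 from 48 h to 108 h, and Col6a4 by 1.87 ± 0.36 in the latter (adjusted p = 2.85e-05, 1.09e-05 and 6.36e-05). Each of these calls was lost with any 1 of its 4 libraries left out, with adjusted p values up to 9.60e-04, 0.00127 and 0.00159, save that of Col6a6 to 108 h without replicate B of 48 h. The ratio of Col6a2 to Col6a1 per kb was 3.86 and 3.02 at 0 h and 0.550 and 0.563 at 120 h. It rests on the annotated exon lengths, 8326 bases for Col6a2 and 4380 for Col6a1. In reads at 120 h, Col6a2 had 345 and 272 and Col6a1 had 330 and 254.

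Col9a2, a chain of the type IX collagen that coats type II fibrils, was at 4.52 and 4.51 at 0 h, 2.14 and 2.12 at 12 h, 1.71 and 1.82 at 48 h and 4.55 and 4.89 at 108 h. It fell by 1.67 ± 0.19 from 6 h to 12 h and rose by 2.96 ± 0.19 from 48 h to 108 h (adjusted p = 2.52e-07 and 4.32e-13). Col8a2, a network collagen of the cornea and vessels, fell by 1.25 ± 0.24 in the first 6 h and rose by 2.62 ± 0.24 to 48 h (adjusted p = 7.46e-05 and 4.71e-10), the first being lost whichever library was left out (adjusted p = 3.97e-04 to 0.00277). Col11a2, a partner of type II fibrils, rose by 2.10 ± 0.31 in the step from 102 h to 108 h (adjusted p = 2.49e-05). Col26a1 was called lower from 6 h to 12 h, by 1.94 ± 0.32 (adjusted p = 5.39e-05).

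Col12a1, a collagen on the surface of fibrils, had 0 and 1 reads at 0 h and 166 and 135 at 120 h, a ratio of 277 with a counting interval from 49.4 to 10983. Its fitted log2 fold change of 7.32, which depends on that offset too, was 6.54 without replicate A of 0 h and 8.10 without replicate B of 0 h, and was called in both cases. Col25a1, a collagen of nerve cells, had 0 and 0 reads at 6 h, 4 and 12 at 48 h and was at 2.32 and 2.16 at 108 h. It was at least 4.19-fold higher at 48 h than the floor over both 6 h libraries. Its calls from 6 h to 48 h and on to 108 h were lost when replicate B or replicate A of 48 h, respectively, was left out (log2 fold changes 2.77 and 3.42, adjusted p = 0.00195 and 1.91e-04), the former also without replicate A of 6 h (adjusted p = 7.70e-04). Col23a1 fell by 2.12 ± 0.37 from 6 h to 48 h (adjusted p = 2.32e-05), lost without either library of 6 h or replicate B of 48 h (adjusted p = 2.78e-04 to 0.0033), and rose by 2.88 ± 0.37 to 108 h (adjusted p = 1.93e-07).

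A further 4 collagens rose from 48 h to 108 h. Col11a1, a chain of the fibrils of cartilage, rose by 1.60 ± 0.24, Col9a3 by 1.77 ± 0.27, Col16a1 by 2.84 ± 0.37 and Col22a1 by 2.92 ± 0.44 (adjusted p = 2.24e-06, 2.06e-06, 2.75e-07 and 2.63e-06). The calls of Col11a1, Col9a3 and Col22a1 were each lost without 1 or 2 of the 4 libraries (adjusted p up to 2.63e-04, 1.72e-04 and 1.66e-04): replicate A of both time points for Col11a1, replicate B of 108 h for Col9a3, and replicate B of 108 h or replicate A of 48 h for Col22a1. Col27a1, Itga7 and Itga2b were called over time but in none of the 5 comparisons. Itga7, a laminin receptor subunit of muscle, was at 1.81 and 1.38 at 6 h and -1.31 and -2.66 at 24 h, and Itga2b, the platelet subunit, was at 1.70 and 1.94 at 0 h and 0.59 and 0.39 at 6 h.

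Step by step, 24 members were called in at least 1 of the 20 steps of 6 h, against 29.3% of all genes. The step from 0 h to 6 h held 18 of the calls, 8 higher and 10 lower, against 11.8% and 14.5% of all genes. These shares of the members were near those of all genes. That from 6 h to 12 h held 9, all lower, against 2.88% of all genes called lower in it. That from 102 h to 108 h held Itga5 and Col11a2, both higher, against 1.37% of all genes called higher. The 9 were Col26a1, Col6a2, Itgb5, Lama3, Col7a1, Col5a1, Col9a2, Col4a5 and Lamb2. In each of 16 further steps none was called by limma, with 10 to 25 members at an unadjusted p below 0.05 and at most 3 called with voom precision weights. Few genes were called at all in these steps, from 0 to 246 of all 14296. The unadjusted counts have no share of all genes beside them.

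Other genes of the same pathway were counted from lists of matrix partners, collagen processing, adhesion complex and other receptor genes. The shares of all genes called higher and lower were 11.8% and 14.5% in the first 6 h, 13.1% and 10.4% from 6 h to 48 h, and 15.7% and 12.9% from 48 h to 108 h. Of 16 measured basement membrane and matrix partners, 3 rose (18.75%) and 1 fell (6.25%) in the first 6 h, 1 rose (6.25%) and 7 fell (43.75%) from 6 h to 48 h, and 8 rose (50%) and 0 fell from 48 h to 108 h. The 1 that fell in the first 6 h was not called with any 1 of the 4 libraries left out, and the 1 that rose to 48 h became 2 without replicate A of 6 h. Nid1 (nidogen, which links laminin to type IV collagen) fell by 3.0 ± 0.16 and Sparc (a collagen-binding matrix protein) by 2.13 ± 0.07 from 6 h to 48 h (adjusted p = 5.49e-15 and 1.26e-19). Tinagl1, a basement membrane protein, went from a mean of 1.08 at 0 h to 3.99 at 6 h, -2.94 at 48 h and 5.24 at 108 h. Thbs1, thrombospondin, rose by 6.90 ± 0.36 from 48 h to 108 h (adjusted p = 4.78e-15).

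Of 27 collagen processing genes, 4 rose (14.81%) and 6 fell (22.22%) in the first 6 h, 5 rose (18.52%) and 7 fell (25.93%) from 6 h to 48 h, and 7 rose (25.93%) and 3 fell (11.11%) from 48 h to 108 h. The shares higher in the first 6 h and lower from 48 h to 108 h were near those of all genes. With 1 library left out, the 4 became 2 without replicate B of 6 h and 3 otherwise, the 5 became 0 or 1, and the 3 became 0 or 1. Serpinh1, the collagen chaperone, rose by 4.04 ± 0.13 and Bmp1, a procollagen protease, by 3.11 ± 0.19 from 48 h to 108 h (adjusted p = 1.60e-19 and 1.65e-13). P4ha1, a prolyl hydroxylase subunit, fell by 1.76 ± 0.10 in the first 6 h and rose by 1.16 ± 0.10 from 108 h to 120 h (adjusted p = 9.15e-14 and 3.28e-09), when Col1a1 was called.

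Of 24 integrin adhesion complex genes, 5 rose (20.83%) and 1 fell (4.17%) in the first 6 h, 4 rose (16.67%) and 9 fell (37.50%) from 6 h to 48 h, and 12 rose (50%) and 3 fell (12.50%) from 48 h to 108 h. The 5 became 3 without replicate A of 6 h, and the shares higher from 6 h to 48 h and lower from 48 h to 108 h were near those of all genes. In the first 6 h Vcl (vinculin) rose by 1.54 ± 0.14 and Flna (filamin) by 1.37 ± 0.20 (adjusted p = 9.41e-10 and 1.90e-06), the interval in which Itga3, Itga5, Itga6 and Itgb1 rose. Of the parvins, which join integrins to actin, Parvb fell by 4.11 ± 0.15 and Parva by 0.68 ± 0.12 from 6 h to 48 h (adjusted p = 1.24e-18 and 2.41e-05). From 48 h to 108 h Parvb rose by 1.66 ± 0.15 and Parva by 3.66 ± 0.12 (adjusted p = 2.06e-10 and 2.71e-19). Of 13 other matrix receptors, 2 rose (15.38%) and 2 fell (15.38%) in the first 6 h, 5 rose (38.46%) and 2 fell (15.38%) from 6 h to 48 h, and 10 rose (76.92%) and 0 fell from 48 h to 108 h. In the first 6 h the 2 that rose became 1 without any library but replicate B of 0 h, and the 2 that fell became 1 with any library left out. Among the 10, the collagen receptor Ddr1 rose by 2.36 ± 0.13 (adjusted p = 3.34e-14) and the hyaluronan receptor Cd44 by 3.57 ± 0.44 (adjusted p = 8.70e-08).

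The median SD between duplicates of a member was 0.15 in log2 units over genes and time points, against 0.11 for all genes. Their spread was widest at 96 h, where the absolute difference between A and B had a median of 0.56 for the members and 0.41 for all genes, and 43 of 64 members were higher in A. None of the 5 comparisons uses that time point for its difference. The 3 widest gaps all had 0 reads in a library: Lamc3 at 18 h (0 and 6 reads), Col5a2 at 0 h (5 and 0) and Col20a1, a little-studied fibril-associated chain, at 30 h (15 and 0). Among members with reads in both libraries, Col5a3 differed most, at 1.71 and -1.20 at 96 h.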

How the data were processed

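Poly-A RNA libraries of W9.5 embryonic stem cells were made with a strand-specific kit at 21 time points, 2 per time point. Per the study's methods, the authors used Trim Galore for trimming, TopHat2 for alignment to mm10, HTSeq for counts on the GENCODE vM2 annotation, edgeR for scaling to library size and voom for the log transformation; tool versions and the strand setting of the count are not given in the sources used here. The deposited values are log2 CPM, 1 file per library. Inverting the voom formula returned whole reads (within 2.91e-08 of a read), which are the reads quoted. Of the 14296 gene identifiers, 14177 were found in GENCODE vM21 on GRCm38 and 119 were not.

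limma 3.58.1 in R 4.3.3 was fitted to the deposited log2 values of all genes and all 42 libraries (lmFit, eBayes with a trend, a factor of 21 time points, 21 residual degrees of freedom). P-values were adjusted by Benjamini-Hochberg over all genes within each comparison, with a threshold of 0.0001, and a fold change is on the log2 CPM scale, which understates changes of low genes. The fit was tested on simulated data, where recovery fell short of the limit first set because changes of genes with few reads were missed; the limit was then restated for genes with more reads, so a member with few reads that was not called may have changed. Shares per length used counted reads per effective library size and the union of exon bases in vM21, not the annotation that was counted. Counting intervals are exact 95% intervals, and the floor is 3 reads. Alternatives were voom weights, a replicate block, no trend, a threshold of 0.05, a filter on mean level, log2 of CPM plus 1, other scalings, a fit on neighbouring time points and leaving out each library. The count without members of few reads was chosen after seeing the data.

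The members and gene lists were chosen with earlier results of these data known. Genes named were a set of common members, up to 8 members in each direction per comparison with the largest called changes of the same sign in both replicates, members called in a step, those with the 3 widest gaps between duplicates and, for the other pathway genes, up to 3 in each direction, list and comparison. Other members are named so that they are accounted for, except that the values of 1 member, which stays in the counts, are not reported here.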

Additional observations from a re-analysis of the deposited data

How the results depend on the processing

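Counts of members called are given as higher or lower in each comparison. Shares of all genes were not counted under the alternative settings, so these counts are set only against those reported above. At an adjusted p below 0.05, they became 14 higher and 19 lower for 6 h against 0 h, 17 higher for 48 h against 6 h, 11 lower for 108 h against 48 h, 12 higher and 9 lower for 120 h against 108 h, 12 lower for 120 h against 0 h, and 56 called in at least 1 step. Fitted on neighbouring time points alone, which have fewer samples, they were 3 lower for 6 h against 0 h, 4 higher for 48 h against 6 h and 0 higher for 120 h against 108 h. With genes of a mean of at least 0 log2 CPM, which drops members from the test, 5 were higher for 48 h against 6 h and 17 for 120 h against 0 h. For 120 h against 108 h, voom precision weights gave 5 higher, and log2 of CPM plus 1 gave 4 higher and 1 lower; the cause was not tested. Leaving out 1 library at a time gave 2 to 4 lower for 6 h against 0 h, 5 to 6 higher for 48 h against 6 h, 2 to 3 lower for 108 h against 48 h and 0 higher for 120 h against 108 h (range 0 to 0). The lone library was then assumed to vary like those of the other time points. Other counts over all members stayed within 1.5 times of those reported, while counts over single lists moved further where the report says so. No named member changed direction while called. Scaling by library totals moved the median of all genes from -0.047 to -0.265 for 6 h against 0 h and from -0.012 to 0.117 for 120 h against 108 h. Leaving out libraries and the fit on neighbours were not run for the steps or the F test.

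With the replicate block, 38 members were higher and 5 lower for 108 h against 48 h, 28 higher and 8 lower for 120 h against 0 h, and the block kept all members called without it. The duplicate letters were not taken as pairs, since the differences between A and B correlated between time points by 0.080 on average, from -0.474 to 0.598 over 210 pairs. Depth limits the members at or under 3 reads, for which read counts were given.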
